A study of Mus musculus with 12 samples.

Results

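CC chemokines are small secreted proteins named for a pair of adjacent cysteines, and the 10 CC chemokine genes Ccl2, Ccl3, Ccl4, Ccl5, Ccl6, Ccl7, Ccl9, Ccl12, Ccl22 and Ccl24 are described here in bone marrow-derived macrophages (BMDMs). The genes were taken by symbol from a table of 24421 gene symbols, by a rule that uses no measured value, though earlier results of these data were known when the rule was set. Of the 10 genes, 9 passed the filter on low counts and were tested, and Ccl24 did not.

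BMDMs of C57BL/6 mice were differentiated with M-CSF, the macrophage growth factor, at 100 ng/mL for 5 days, with fresh medium on day 3. All cells were then kept for 4 h with an antigen and a drug or solvent, in 4 groups of 3 libraries. The groups were ovalbumin with DMSO (DMSO Ova), ovalbumin in an immune complex with rabbit anti-ovalbumin IgG with DMSO (DMSO IC), ovalbumin with 5 uM I-BET151 (iBET Ova) and immune complex with I-BET151 (iBET IC). The labels give 5% DMSO for the DMSO groups and no amount for the iBET groups, so whether the solvent matched cannot be checked. Each group held 1 library from mouse A, 1 from mouse B and 1 from mouse C, so that the groups compared came from the same 3 animals. I-BET151 (iBET) blocks the bromodomains with which BET proteins bind acetylated histones. The labels describe drug and antigen as given together whereas the study's methods place the drug first. No group without antigen was analysed here, and the age and sex of mice A, B and C are not given in the sources used here.

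CC chemokines bind G protein-coupled receptors on leukocytes and direct their migration. Macrophages are a main source of the monocyte chemoattractants (the MCP group, with Ccl2, Ccl7 and Ccl12), which act largely through Ccr2, and of the macrophage inflammatory proteins (the MIP group, with Ccl3, Ccl4, Ccl6 and Ccl9, to which Ccl5 is a neighbour in the genome), several of which act through Ccr1. Ccl22 is a ligand of Ccr4, best known from dendritic cells and alternatively activated macrophages, and Ccl24 is an eosinophil attractant that binds Ccr3. Crosslinking of Fc gamma receptors by immune complex activates macrophages and, among other genes, those of cytokines and chemokines.

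On GRCm38 with the GENCODE vM21 annotation all 10 genes are protein coding. The 3 MCP genes lie within 67.8 kb on chromosome 11 (chr11:82035571-82103400), and the 5 MIP group genes, Ccl5 included, lie within 139 kb of the same chromosome (chr11:83525778-83664683). Ccl22 lies apart on chromosome 8 (chr8:94745590-94751699) and Ccl24 on chromosome 5 (chr5:135569937-135573049). Ccl2 overlaps the gene Gm17268 and Ccl6 overlaps E230016K23Rik on the opposite strand. Whether counting used the strand is not given in the sources used here, so reads of those partners cannot be told apart from reads of Ccl2 and Ccl6. No member shared a stretch of 50 bases with another CC chemokine transcript (0% of such stretches).

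RefSeq promoters (GRCm38.p6) were at hand for 5 of the 10 genes, and 4 of them are shown because they belong to the genes whose levels are contrasted below: a gene that rose with iBET (Ccl3), the most abundant member and its neighbour (Ccl9 and Ccl6), and a member of low level (Ccl12). Each runs 5′ to 3′ on the gene's strand from 250 bases before the start to 30 bases after it. Capitals mark matches, on either strand, to NF-kB (by name), AP-1 (TGANTCA), the PU.1 core (GAGGAA) and the TATA box (letters TATAAA). NF-kB and AP-1 are activated downstream of Fc gamma receptors, and PU.1 is a defining factor of myeloid cells.
Ccl3, minus strand, chr11:83649349-83649628: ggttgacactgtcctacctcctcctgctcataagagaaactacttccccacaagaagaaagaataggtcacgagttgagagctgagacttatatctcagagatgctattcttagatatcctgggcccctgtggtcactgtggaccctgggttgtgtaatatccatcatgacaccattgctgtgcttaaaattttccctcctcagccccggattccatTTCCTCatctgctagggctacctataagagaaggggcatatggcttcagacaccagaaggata
Ccl6, minus strand, chr11:83593058-83593337: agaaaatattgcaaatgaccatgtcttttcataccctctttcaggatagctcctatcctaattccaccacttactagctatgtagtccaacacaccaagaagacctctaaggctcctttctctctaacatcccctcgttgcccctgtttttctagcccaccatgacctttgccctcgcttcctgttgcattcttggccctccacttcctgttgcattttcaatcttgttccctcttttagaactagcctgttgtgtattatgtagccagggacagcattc
Ccl9, minus strand, chr11:83578607-83578886: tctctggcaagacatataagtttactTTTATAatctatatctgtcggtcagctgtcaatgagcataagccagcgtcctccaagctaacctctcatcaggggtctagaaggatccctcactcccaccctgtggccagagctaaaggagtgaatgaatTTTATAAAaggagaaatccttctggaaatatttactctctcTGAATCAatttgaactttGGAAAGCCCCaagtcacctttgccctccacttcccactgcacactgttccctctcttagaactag
Ccl12, plus strand, chr11:82101595-82101874: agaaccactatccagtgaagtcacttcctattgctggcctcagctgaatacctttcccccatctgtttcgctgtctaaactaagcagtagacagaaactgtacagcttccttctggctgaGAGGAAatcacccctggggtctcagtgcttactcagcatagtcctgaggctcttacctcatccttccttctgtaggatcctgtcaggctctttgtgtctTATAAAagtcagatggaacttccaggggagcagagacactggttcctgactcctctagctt
With the start counted as 0, the Ccl3 window held a PU.1 core on the reverse strand at -33. The Ccl9 window held an NF-kB match on the reverse strand at -35, an AP-1 match at -53 and 3 TATA matches at -224, -94 and -92, of which the last 2 overlap. The Ccl12 window held a PU.1 core at -130 and a TATA match at -31, and the Ccl6 and Ccl22 windows held none of the 4 motifs. Among all 32851 RefSeq promoters of the same length, 7.94% held NF-kB, 7.46% AP-1, 26.0% the PU.1 core and 13.1% TATA. A match is a string of letters and was not measured as a binding site. The Ccl6 and Ccl9 windows also shared a stretch around the start, with 43 identical bases in 55 aligned columns, whereas the best local alignments of the other 9 pairs of windows spanned 9 to 21 columns.

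The messages of several inflammatory chemokines carry AU-rich pentamers (ATTTA) after the coding part, a known feature of short-lived transcripts. Ccl12 held 29.9 of these per kb of its 3'UTR and Ccl3 held 12.2, against a median of 1.37 and a 90th percentile of 4.46 over 18388 coding genes. Ccl4 held 6.62, Ccl7 4.60, Ccl6 4.24, Ccl2 3.64, Ccl9 2.03 and Ccl22 1.10 per kb, and Ccl5 and Ccl24 held 0. These densities depend on length: Ccl12, Ccl3 and Ccl9 each held 5 pentamers, in 3'UTRs of 167, 409 and 2465 bases. The value of Ccl2 rests on 1 pentamer in 275 bases.

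The libraries held 7549849 to 17387639 counts. In the mouse A library of DMSO Ova, 77.4% of counts fell on the ribosomal RNA gene Rn45s, which left 1768133 other counts, against 1.41 to 7.83% and 7247830 to 16899110 in the other 11 libraries. Values in that library are therefore coarser: 1 count was worth 0.514 CPM (counts-per-million, scaled by the trimmed mean of M values) there and 0.0534 to 0.120 CPM elsewhere. All 8 macrophage markers were expressed, with a summed level of 6569 to 7674 CPM in DMSO Ova, 6325 to 7237 CPM in DMSO IC, 7136 to 8484 CPM in iBET Ova and 7741 to 8454 CPM in iBET IC. That sum was thus higher with iBET without overlap in IC. The 7 dendritic cell markers summed to 0.514 to 1.55 CPM, with 1.20 to 1.55 CPM in iBET IC, 0.667 to 1.18 CPM in DMSO IC, 0.677 to 1.39 CPM in iBET Ova and 0.514 to 0.829 CPM in DMSO Ova, and the part of these macrophage and dendritic cell markers in the results was not tested. The 5 mast cell and basophil markers were at 0 in every library. In bulk RNA, fewer cells that express a gene and less RNA of that gene per cell cannot be told apart.

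To set the 10 genes side by side, CPM were divided by exon length in kb. Ccl9, an attractant of myeloid cells that binds Ccr1, had the highest level at a mean of 383 CPM per kb over the 12 libraries. It made up 40.7 to 69.6% of the summed level of the 10 genes in a library. Ccl2 followed at 148 CPM per kb, then Ccl6 at 77.7, Ccl7 at 64.0, Ccl3 at 31.7, Ccl4 at 18.7 and Ccl5 at 4.98 CPM per kb. The lowest levels were 1.64 CPM per kb for Ccl12, 0.297 for Ccl22 and 0.0512 for Ccl24. The order of Ccl6 and Ccl7 turned between groups, with means of 80.3 and 23.7 CPM per kb in DMSO Ova and 72.2 and 119 CPM per kb in iBET IC. Pooled over the groups, Ccl2 ranged from 62.9 to 272 CPM per kb, Ccl6 from 46.4 to 109 and Ccl7 from 17.8 to 152, so these 3 ranges overlapped. The range of Ccl9, from 256 to 511 CPM per kb, overlapped that of Ccl2 at its lower end. Within each library, however, Ccl9 lay above Ccl2 and Ccl2 above Ccl7. Ccl2 lay below Ccl6 in the mouse A (67.2 and 89.3 CPM per kb) and mouse B (62.9 and 88.5) libraries of DMSO Ova.

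**Figure D1:**
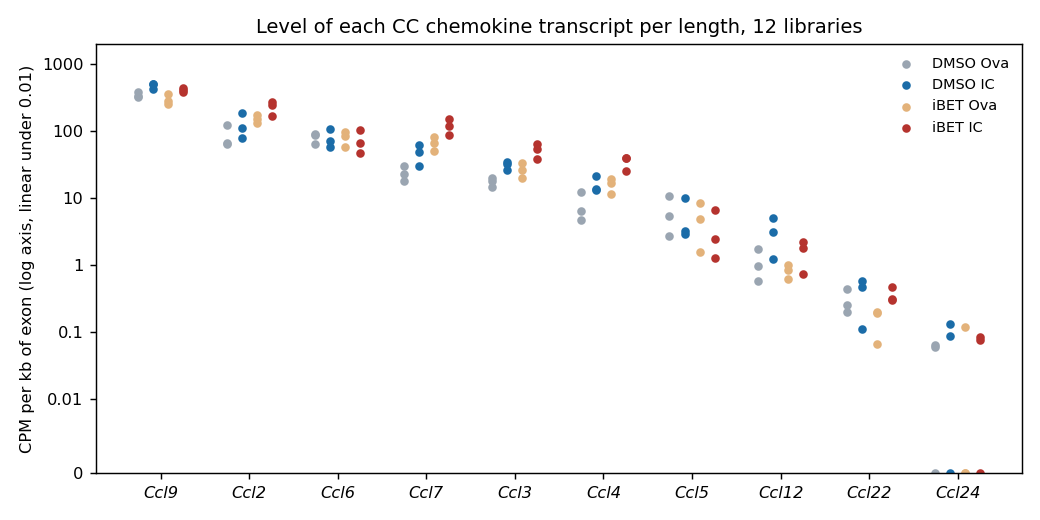
Level of each CC chemokine transcript per kb of exon, on a log axis that is linear under 0.01, with 1 point for each of the 12 libraries coloured by group. Ccl9 stands at the top with a mean of 383 CPM per kb, and Ccl24 is at or near 0.

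Summed over the 10 genes, the level was 1342 ± 99.8 CPM in DMSO Ova and 1821 ± 128 CPM in DMSO IC (SD, n = 3). It was 1317 ± 200 CPM in iBET Ova and 1796 ± 200 CPM in iBET IC (SD, n = 3). These sums follow Ccl9. Without it, the other 9 genes summed to 284 ± 18.5 CPM in DMSO Ova, 365 ± 78.2 CPM in DMSO IC, 405 ± 41.8 CPM in iBET Ova and 554 ± 131 CPM in iBET IC (SD, n = 3).

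Ccl2 encodes the chief attractant of Ccr2-bearing monocytes. Its level in mice A, B and C was 76.5, 71.5 and 138 CPM in DMSO Ova and 127, 89.2 and 213 CPM in DMSO IC. With iBET it was 172, 151 and 196 CPM in Ova and 309, 192 and 283 CPM in IC. Every iBET Ova library lay above every DMSO Ova library, and mouse C was the highest of the DMSO libraries with either antigen. Ccl7, which also encodes an attractant of monocytes, was at 18.5, 14.3 and 24.2 CPM in DMSO Ova and 38.6, 23.8 and 50.3 CPM in DMSO IC. Under iBET Ccl7 was at 65.3, 40.1 and 53.5 CPM in Ova and 121, 71.0 and 93.6 CPM in IC. The iBET libraries lay above the DMSO libraries of the same antigen without overlap, and mouse B was the lowest in all 4 groups.

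Ccl12, another ligand of Ccr2 in this group, was near the limit of detection. It had 1, 4 and 11 counts in DMSO Ova (0.514, 0.307 and 0.912 CPM) and 20, 6 and 28 counts in DMSO IC (1.68, 0.660 and 2.67 CPM). With iBET it had 7, 3 and 4 counts in Ova (0.540, 0.331 and 0.451 CPM) and 22, 4 and 8 counts in IC (1.17, 0.388 and 0.959 CPM). Each mouse had more with IC than with Ova under either treatment. IC overlapped Ova within either treatment, and iBET overlapped DMSO with either antigen.

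Ccl3 and Ccl4 encode macrophage inflammatory proteins 1 alpha and 1 beta, attractants of monocytes and T cells, and Ccl3 is a ligand of Ccr1. Ccl3 was at 13.9, 11.0 and 15.1 CPM in DMSO Ova and 24.3, 19.9 and 26.7 CPM in DMSO IC. Under iBET Ccl3 was at 20.2, 15.4 and 25.4 CPM in Ova and 41.7, 28.8 and 48.8 CPM in IC. The 3 libraries of DMSO Ova were below all others and the 3 of iBET IC above all others. Ccl4 was at 3.08, 4.22 and 8.04 CPM in DMSO Ova, where the first value rests on 6 counts, and at 8.84, 8.69 and 14.2 CPM in DMSO IC. In the iBET libraries it was at 11.0, 7.61 and 12.7 CPM in Ova and 26.5, 16.7 and 26.5 CPM in IC. The iBET IC libraries again lay above the other 9, whereas iBET Ova overlapped DMSO Ova.

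Ccl9 was at 968, 1183 and 1021 CPM in DMSO Ova and 1283, 1556 and 1530 CPM in DMSO IC. Under iBET Ccl9 was at 1093, 864 and 779 CPM in Ova and 1317, 1179 and 1228 CPM in IC. IC libraries were above Ova libraries within either treatment without overlap, and iBET libraries overlapped DMSO libraries within either antigen. Ccl6, a neighbour and close relative of Ccl9, was at 160, 159 and 113 CPM in DMSO Ova and 196, 128 and 102 CPM in DMSO IC. Under iBET Ccl6 was at 174, 151 and 102 CPM in Ova and 185, 120 and 83.3 CPM in IC. All 4 groups overlapped, and mouse C was the lowest in each.

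Ccl5, known as RANTES and an attractant of T cells and monocytes, was at 10.3, 5.14 and 2.57 CPM in DMSO Ova and 9.68, 2.75 and 3.05 CPM in DMSO IC. With iBET it was at 8.03, 4.63 and 1.47 CPM in Ova and 6.30, 2.33 and 1.20 CPM in IC. Mouse A was the highest in every group and the groups overlapped. Ccl22 had 2, 6 and 7 counts in DMSO Ova (1.03, 0.460 and 0.580 CPM), 3, 10 and 14 in DMSO IC (0.252, 1.10 and 1.33 CPM), 2, 4 and 4 in iBET Ova (0.154, 0.441 and 0.451 CPM) and 13, 11 and 6 in iBET IC (0.694, 1.07 and 0.719 CPM). Ccl24 had 0 to 2 counts in a library and 10 counts in all 12, so no difference was detectable for it at this depth.

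**Figure D2:**
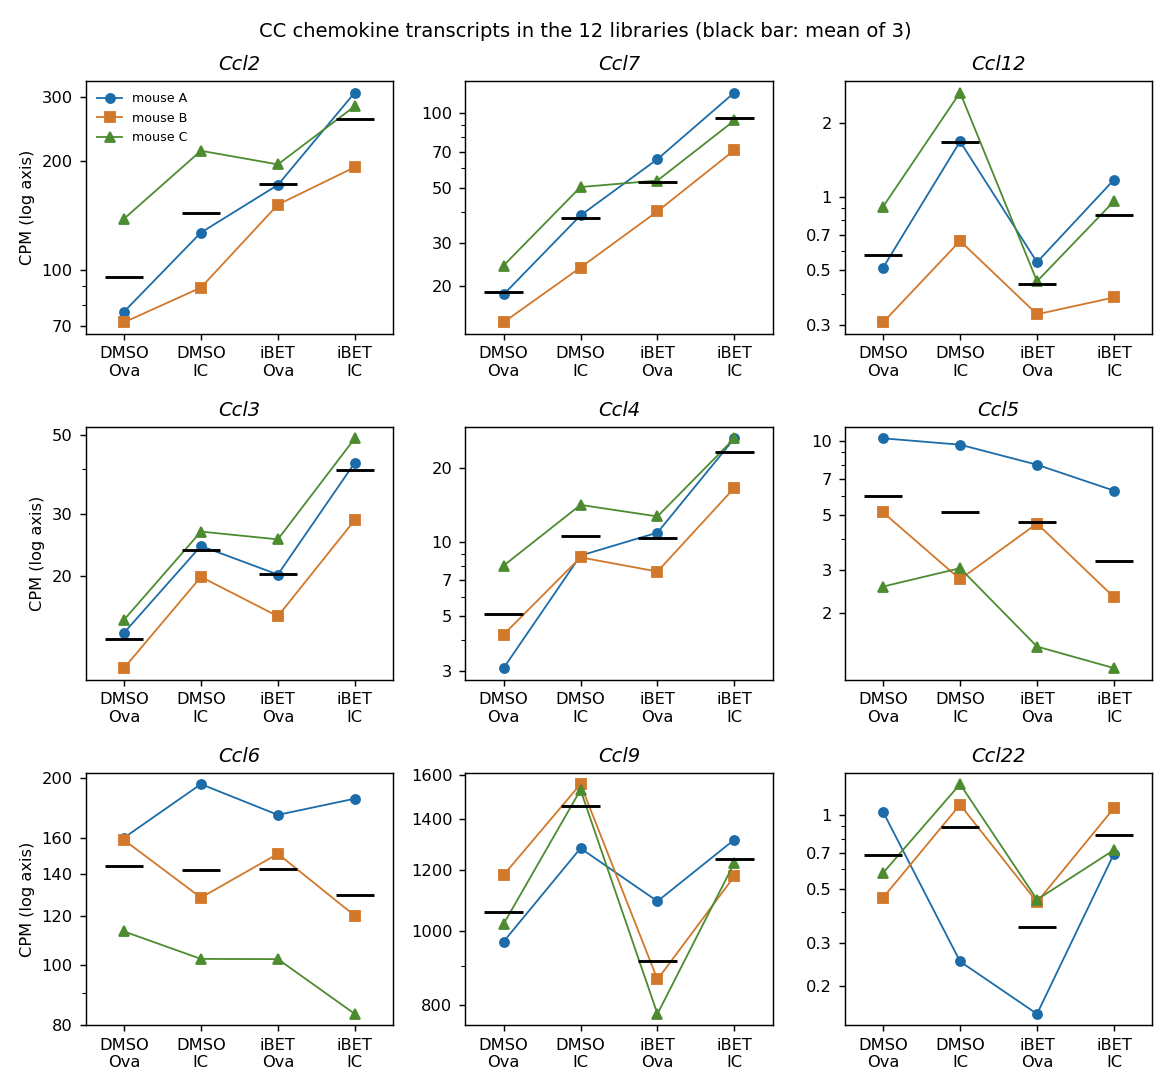
CPM of the 9 tested CC chemokine genes in the 4 groups, on a log axis for each gene, with 1 point per library, lines that join the libraries of 1 mouse and black bars for the mean of 3 libraries. Ccl2, Ccl7, Ccl3 and Ccl4 climb to their highest means in iBET IC, whereas Ccl5 and Ccl6 are ordered by mouse in nearly every group.

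The question of which chemokine genes responded to immune complex was addressed by IC against Ova within DMSO. Ccl3 was 1.79-fold higher with IC (log2 fold change 0.84, SE 0.23), Ccl4 1.89-fold (0.92, SE 0.34), Ccl7 1.98-fold (0.98, SE 0.32) and Ccl9 1.38-fold (0.46, SE 0.14), each in 3 of 3 mice. In edgeR's quasi-likelihood fit without a term for the mouse, 0 of the 9 genes were called at an adjusted p under 0.05, where 1.22% of all 11468 genes were. Their adjusted p-values were 0.127, 0.274, 0.208 and 0.153 in that order. At an unadjusted p under 0.05 there were 5 genes, these 4 and Ccl12 (1.50, SE 0.60), as were 11.7% of all genes. DESeq2 called 1 gene (Ccl3, adjusted p = 0.0478) and 2.45% of all genes. Neither limma on the deposited normalized signal nor limma voom with sample weights called any of the 9, where they called 1.13% and 2.35% of all genes.

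With the mouse as a block, the edgeR fit called 3 of 9, all higher, where 1.47% of all genes were called higher. Ccl3 rose by a log2 fold change of 0.83 (SE 0.12, adjusted p = 0.00312), Ccl4 by 0.91 (SE 0.21, adjusted p = 0.0368) and Ccl7 by 0.91 (SE 0.16, adjusted p = 0.00972). Leaving out each library in turn from this blocked fit kept the call of Ccl3 in 12 of 12 fits and of Ccl7 in 10 of 12. Ccl7 was lost without the mouse B library of DMSO Ova (adjusted p = 0.0794) or the mouse C library of DMSO IC (adjusted p = 0.0718). Ccl4 was called in 3 of the 12 and reached an adjusted p of up to 0.190, with a value of 0.77 (adjusted p = 0.0832) without the mouse A library of DMSO Ova, in which most counts were ribosomal. Ccl9 had an adjusted p of 0.097 with the block and passed in 2 of the 12. In the fit without the block, Ccl2 had a log2 fold change of 0.57 (SE 0.33, 95% interval -0.16 to 1.30), Ccl22 of 0.61 (interval -0.71 to 1.93), Ccl5 of 0.07 (interval -1.62 to 1.76) and Ccl6 of -0.02 (interval -0.72 to 0.69). With the block the interval of Ccl2 was 0.13 to 0.95 and that of Ccl12 was 0.44 to 2.27. Neither gene was called (adjusted p = 0.174 and 0.125), and the intervals of Ccl22, Ccl5 and Ccl6 still spanned 0. Values of Ccl3, Ccl4 and Ccl9 did not overlap between the groups, as was so for 7.80% of all genes in the higher direction. In the fit without the block, the median log2 fold change was 0.61 over the 9 genes and -0.01 over all genes tested. The 0.61 is the value of Ccl22, which had 2 to 14 counts in these libraries and a log2 change of -1.46 in mouse A.

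IC was also compared with Ova under iBET. Ccl3 was 1.95-fold higher with IC (log2 fold change 0.97, SE 0.22), Ccl4 2.22-fold (1.15, SE 0.31), Ccl7 1.80-fold (0.85, SE 0.30) and Ccl9 1.36-fold (0.44, SE 0.14), each in 3 of 3 mice. The edgeR fit without the mouse called 0 of 9 genes, against 0.349% of all genes, with adjusted p-values of 0.127, 0.229, 0.473 and 0.346 in that order. These 4 genes had an unadjusted p under 0.05, as did 7.50% of all genes. DESeq2 called 2 (Ccl3 and Ccl4) and 0.859% of all genes, limma voom with sample weights called 3 (Ccl3, Ccl4 and Ccl9) and 1.98%, and limma on the normalized signal called 0 and 0.314%.

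With the mouse as a block, 3 of 9 were called and rose, where 0.593% of all genes were called higher: Ccl3 by 0.96 (SE 0.11, adjusted p = 0.000992), Ccl4 by 1.16 (SE 0.18, adjusted p = 0.00717) and Ccl7 by 0.85 (SE 0.15, adjusted p = 0.0162). Leaving out each library in turn kept Ccl3 in 12 of 12 fits. It kept Ccl4 in 9 of 12, with losses without the mouse B library of iBET Ova (adjusted p = 0.0674) or C (adjusted p = 0.0608) or the mouse A library of iBET IC (adjusted p = 0.0974). It kept Ccl7 in 8 of 12, with losses without the same 3 libraries (adjusted p = 0.0915, 0.101 and 0.167) or the mouse B library of iBET IC (adjusted p = 0.129). Ccl9 was not called with or without the block (adjusted p = 0.202 with it), but passed without the 4 libraries of mouse A in the fit without the block (log2 fold change 0.58, adjusted p = 0.0194), where 2.66% of all genes were called. In that fit with all libraries, Ccl2 (0.60, 95% interval -0.12 to 1.32), Ccl12 (0.94, interval -0.43 to 2.31), Ccl22 (1.28, interval -0.09 to 2.65), Ccl6 (-0.14, interval -0.83 to 0.56) and Ccl5 (-0.46, interval -2.07 to 1.15) did not pass. With the block the intervals of Ccl2 (0.19 to 0.98) and Ccl22 (0.09 to 2.60) lay above 0. Neither gene was called (adjusted p = 0.241 and 0.436), and the intervals of Ccl12, Ccl6 and Ccl5 still spanned 0. Values did not overlap for Ccl3, Ccl4, Ccl7, Ccl9 and Ccl22, and 9.53% of all genes were higher without overlap. Those of Ccl22 rest on 2, 4 and 4 counts with Ova and 13, 11 and 6 with IC. The median was 0.85 over the 9 genes and -0.01 over all genes.

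The effect of iBET itself was compared first within Ova. Ccl7 rose 2.78-fold (log2 fold change 1.48, SE 0.32, adjusted p = 0.00489 by edgeR), in 3 of 3 mice. It was the only member of the 9 called, and none was called lower, where 31.3% of all genes were called and 17.1% were called higher. Ccl4 (log2 fold change 0.90, SE 0.34, adjusted p = 0.0623), Ccl2 (0.84, SE 0.33, adjusted p = 0.0764) and Ccl3 (0.62, SE 0.23, adjusted p = 0.0622) were higher in 3 of 3 mice and missed the threshold. Without the 4 libraries of mouse A, Ccl7 had a log2 fold change of 1.26 and an adjusted p of 0.115, and Ccl9 was called lower (-0.45, adjusted p = 0.00808). Without mouse A, B or C, 33.6%, 11.4% and 17.6% of all genes were called in this comparison. The genes that missed the threshold passed without single libraries or without mouse C: Ccl2 without the mouse C library of DMSO Ova (adjusted p = 0.022), the mouse B or C library of DMSO IC (0.0456 and 0.0366) or mouse C (0.0184), Ccl3 without the mouse B library of iBET Ova (0.0345) or iBET IC (0.0403), and Ccl4 without the mouse C library of DMSO Ova (0.015), the mouse B library of iBET Ova (0.0478), the mouse C library of DMSO IC (0.0496) or mouse C (0.0354).

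Once the mouse was a block, 4 of 9 genes rose with iBET in Ova, where 20.4% of all genes were called higher. They were Ccl7 (1.44, SE 0.16, adjusted p = 2.9e-05), Ccl2 (0.89, SE 0.19, adjusted p = 0.00341), Ccl3 (0.60, SE 0.12, adjusted p = 0.0023) and Ccl4 (0.90, SE 0.21, adjusted p = 0.0047). Each kept its call in 12 of 12 fits that left out 1 library, among them the fit without the mouse A library of DMSO Ova. In the fit without the block the other members had intervals that span 0: Ccl9 -0.21 (95% interval -0.51 to 0.08), Ccl6 -0.01 (-0.71 to 0.69), Ccl5 -0.05 (-1.76 to 1.67), Ccl12 -0.39 (-1.94 to 1.16) and Ccl22 -0.77 (-2.31 to 0.77). Ccl2, Ccl3 and Ccl7 were higher without overlap, as were 25.2% of all genes, and Ccl22 was lower without overlap, as were 19.9%. For Ccl22 the gap was between 0.460 CPM with DMSO and 0.451 CPM with iBET. It rests on 2, 6 and 7 against 2, 4 and 4 counts, with the coarse mouse A library of DMSO Ova among them. The median was -0.01 over the 9 genes and 0.02 over all genes.

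Within IC, 3 of the 9 genes rose with iBET and 0 fell, where 34.8% of all genes were called and 19.0% were called higher. Ccl7 rose 2.54-fold (log2 fold change 1.34, SE 0.30, adjusted p = 0.00521 by edgeR), Ccl4 2.19-fold (1.13, SE 0.31, adjusted p = 0.0128) and Ccl3 1.68-fold (0.75, SE 0.22, adjusted p = 0.0186), each in 3 of 3 mice and without overlap between the groups. Ccl2 was 1.83-fold higher in 3 of 3 mice and missed the threshold (0.87, SE 0.33, adjusted p = 0.061), but passed with DESeq2 (adjusted p = 0.0278), limma on the normalized signal (0.0438) and limma voom (0.0338). Without the 4 libraries of mouse A, which leaves 2 libraries per group, none of the 3 calls held (adjusted p = 0.135 for Ccl7, 0.160 for Ccl4 and 0.182 for Ccl3), and Ccl9 was called lower (-0.37, adjusted p = 0.0234). Without mouse A, B or C, 33.5%, 15.4% and 21.6% of all genes were called in this comparison. Ccl4 was also lost without mouse B (adjusted p = 0.0523). Ccl3 was also lost without mouse C (adjusted p = 0.0743) and without the mouse B library of DMSO IC (0.0672), the mouse A library of iBET IC (0.0561) or that of mouse C (0.0824). Ccl2 passed without the mouse C library of DMSO Ova (adjusted p = 0.0349) or DMSO IC (0.0102), the mouse B library of iBET IC (0.0443) or mouse C (0.0108).

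The block of mice gave 4 of 9 genes that rose with iBET in IC, where 22.4% of all genes were called higher. Ccl2 joined the others with a log2 fold change of 0.94 (SE 0.18, adjusted p = 0.00202), and all 4 kept their calls in 12 of 12 fits that left out 1 library. Without the block, Ccl12 had a log2 fold change of -0.94 (95% interval -2.07 to 0.18), Ccl5 of -0.58 (-2.18 to 1.03), Ccl9 of -0.23 (-0.53 to 0.07), Ccl6 of -0.13 (-0.83 to 0.57) and Ccl22 of -0.10 (-1.26 to 1.06). The signs of Ccl12 and Ccl5 were shared by 3 of 3 mice, and with the block their adjusted p-values were 0.0601 and 0.0554. Their intervals with the block, -1.68 to -0.12 and -1.28 to -0.11, lay below 0. Ccl5 passed in 3 of the 12 blocked fits without 1 library, at an adjusted p as low as 0.0147. Across all genes, 26.3% were higher and 22.3% lower without overlap. In the fit without the block the median was -0.10 over the 9 genes and -0.0037 over all genes. The -0.10 is the value of Ccl22, which had 3 to 14 counts in these libraries. The members split into those that rose and those with values at or below 0. Comparisons with iBET in Ova and in IC rest on different libraries, whereas each IC comparison shares its libraries with the iBET comparisons.

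**Figure D3:**
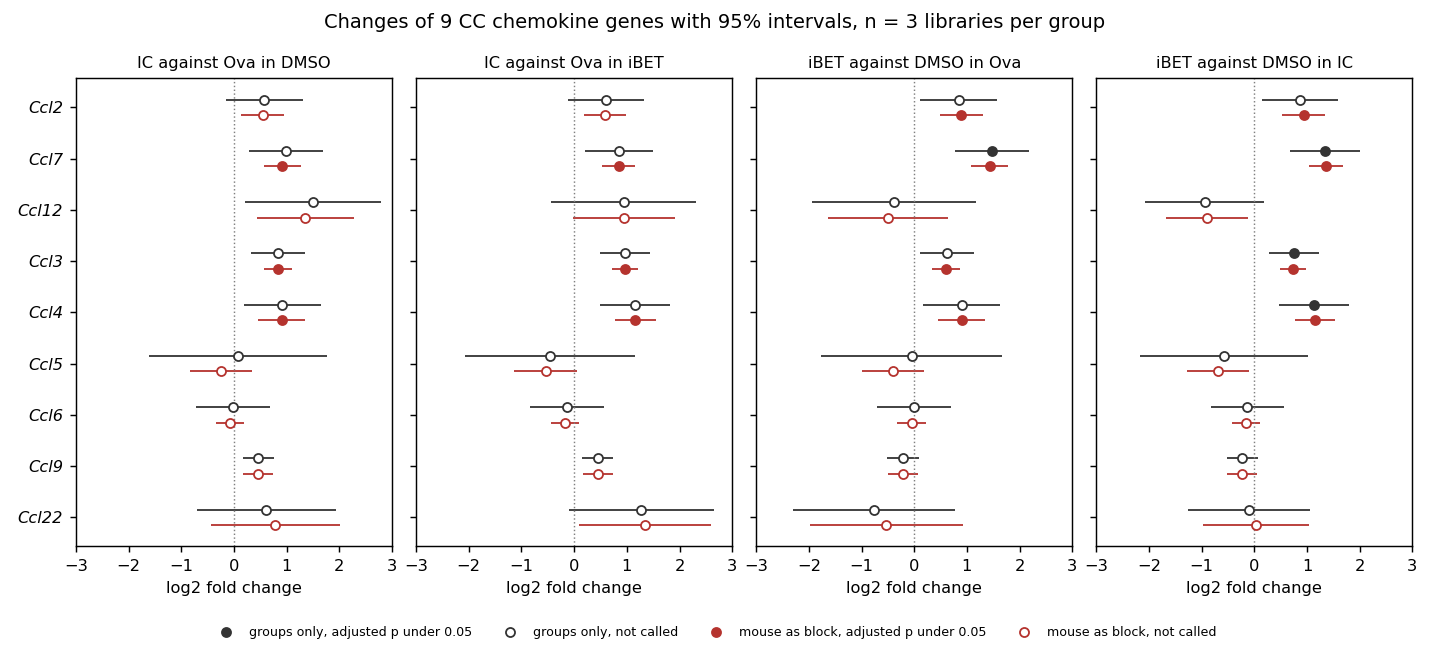
Log2 fold changes of the 9 tested genes in the 4 comparisons, with 95% intervals, from the edgeR fit on the groups (grey) and with the mouse as a block (red), filled where the adjusted p was under 0.05. The intervals of Ccl2, Ccl7, Ccl3 and Ccl4 narrow with the block and lie above 0 in every panel.

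Whether iBET altered the response to IC was tested by the interaction, in which the IC response under DMSO is subtracted from the response under iBET. None of the 9 genes passed in edgeR (0.00% of all genes did), 0 had an unadjusted p under 0.05, and DESeq2, limma on the normalized signal, limma voom and the fit with the mouse block also called 0 of the 9. The differences were 0.03 for Ccl2 (95% interval -0.995 to 1.05), -0.13 for Ccl7 (-1.08 to 0.81), 0.13 for Ccl3 (-0.57 to 0.82), 0.23 for Ccl4 (-0.76 to 1.23) and -0.02 for Ccl9 (-0.43 to 0.40) on the log2 scale. Those of Ccl6 (-0.12), Ccl5 (-0.53), Ccl12 (-0.55) and Ccl22 (0.67) were within intervals of -2.86 to 2.59. For the first 5 genes the intervals reached to -1.08 and 1.23, so a p above the threshold does not show equal responses. Over all genes, 292 had an unadjusted p under 0.05.

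Since the labels name the mouse of each library, the spread between mice could be set beside that between groups. An F test of the mouse terms in the blocked edgeR fit, chosen after the data had been seen, called 6 of the 9 genes, against 5.55% of all genes. Ccl5 had the lowest adjusted p among them (0.000385). Its level was 6.30 to 10.3 CPM in mouse A, 2.33 to 5.14 CPM in mouse B and 1.20 to 3.05 CPM in mouse C over the 4 groups. Ccl6 (adjusted p = 0.000911) was at 160 to 196 CPM in mouse A, 120 to 159 CPM in mouse B and 83.3 to 113 CPM in mouse C, without overlap between mice. Both held in 12 of 12 fits that left out 1 library.

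The other genes called were ordered differently. Ccl3 (adjusted p = 0.00761), Ccl7 (0.0102), Ccl2 (0.034) and Ccl4 (0.0359) were lowest in mouse B in the fit, at log2 differences from mouse A of -0.39, -0.68, -0.39 and -0.38. Without 1 library, Ccl3 and Ccl7 held in 11 of 12 fits, Ccl2 in 6 and Ccl4 in 4, with adjusted p-values of up to 0.0507, 0.0664, 0.141 and 0.172. Ccl12 (0.0752), Ccl22 (0.413) and Ccl9 (0.859) did not pass. The level of the neutrophil markers also moved with the mouse: 7 of 8 were in the table, 3 of them (Camp, Elane and Mpo) averaged under 1 CPM, and the sum was 9.76 to 17.3 CPM in mouse A, 23.5 to 48.4 CPM in mouse B and 44.8 to 56.3 CPM in mouse C. By group, that sum was 9.76 to 54.0 CPM in DMSO Ova, 12.1 to 49.1 CPM in DMSO IC, 14.6 to 56.3 CPM in iBET Ova and 17.3 to 44.8 CPM in iBET IC. Its part in the differences between mice was not tested.

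Profiles over the 12 libraries were compared by the root mean square difference of log2 CPM after each gene was centred on its own mean, where 0 would be the same profile. Ccl2 and Ccl3 were closest (0.33), followed by Ccl4 and Ccl7 (0.34), Ccl2 and Ccl4 (0.35), Ccl2 and Ccl7 (0.35) and Ccl3 and Ccl4 (0.38). Ccl2 with Ccl3, Ccl4 with Ccl7 and Ccl2 with Ccl4 join genes of both chromosome 11 groups, whereas the others lie within a group. Ccl6 and Ccl9, which are neighbours, were at 0.47, and Ccl5 was closest to Ccl6 (0.60). The measure describes libraries that share mice and depth, and carries no test.

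Other CC chemokine genes were largely silent. Of 14 further ligand genes, only Ccl25 and Ccl28 were tested. Neither was called with IC in either treatment, where 1.22% of all genes were called in DMSO and 0.349% in iBET. Ccl28, known from mucosal epithelia, was at 0, 0.0767 and 0.414 CPM in DMSO Ova and 1.70, 0.551 and 1.69 CPM in iBET Ova. It rose with iBET in Ova (log2 fold change 2.54, SE 0.81, adjusted p = 0.0318), where 17.1% of all genes were called higher. The DMSO Ova values rest on 0, 1 and 5 counts in mice A, B and C. The 0 was in the library in which most counts were ribosomal, where 1 count was worth 0.514 CPM. In IC Ccl28 was at 0.505, 0 and 0.381 CPM with DMSO and 1.65, 0.775 and 0.959 CPM with iBET (1.88, SE 0.72, adjusted p = 0.0586, and 0.014 with the mouse as a block). The blocked fit called 22.4% of all genes higher with iBET in IC.

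Receptors that were called under iBET went the other way from Ccl2, Ccl3, Ccl4 and Ccl7. Of 13 CC receptor genes 4 were tested, and in Ova 2 fell, where 14.2% of all genes were called lower, with log2 fold changes of -3.21 for Ccr2 and -2.90 for Ccr1 and adjusted p-values of 2.19e-06 and 8.13e-06. In IC, where 15.8% of all genes were called lower, these fell too, with -2.60 and -2.52 (adjusted p = 5.69e-06 and 1.17e-05), as did Ccr3, the receptor of Ccl24, with -1.55 (SE 0.49, adjusted p = 0.0307). In Ova Ccr3 had a log2 fold change of -1.30 (adjusted p = 0.0768, and 0.000154 with the mouse as a block). Ccrl2, an atypical receptor, had values of -0.46 in Ova and 0.18 in IC and did not pass.

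Ccr2, the receptor of Ccl2, Ccl7 and Ccl12, went from 242, 210 and 192 CPM in DMSO Ova to 32.9, 18.7 and 17.3 CPM in iBET Ova. The groups did not overlap. IC against Ova called 0 of the 4 receptors in either treatment, where 1.22% of all genes were called in DMSO and 0.349% in iBET. In DMSO, Ccr2 was at 158, 138 and 143 CPM with IC and had a log2 fold change of -0.55 (adjusted p = 0.295, and 0.0388 with the mouse as a block). The blocked fit called 1.27% of all genes lower.

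**Figure D4:**
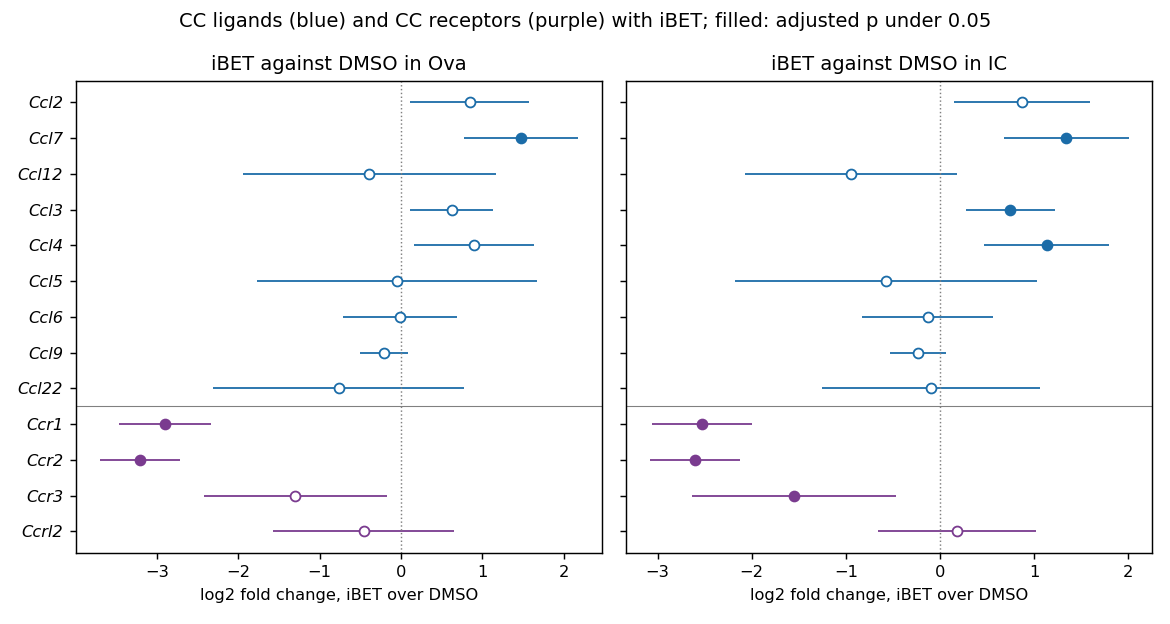
Log2 fold changes with iBET in Ova and in IC for the 9 tested CC ligand genes (blue) and 4 tested CC receptor genes (purple), with 95% intervals, filled where the adjusted p was under 0.05. The called ligands lie above 0 and the called receptors, Ccr1, Ccr2 and in IC Ccr3, lie below -1.

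Downstream of these receptors, a list of 30 genes was tested in full. It held genes of G proteins, phospholipase C, phosphoinositide 3-kinase, arrestins, receptor kinases and RGS proteins. The list also held Prex1, Dock2, Elmo1, Rac1, Rac2, Cdc42 and Ptk2b. With iBET in Ova 1 rose and 11 fell, where 17.1% of all genes were called higher and 14.2% lower. The one that rose was Plcb3, a phospholipase C (0.72, adjusted p = 0.000992), and the largest fall was that of the receptor kinase gene Adrbk2 (-1.25, adjusted p = 0.0307). In IC, where 19.0% of all genes were called higher and 15.8% lower, 4 rose, of which Pik3r6, a phosphoinositide 3-kinase subunit, had the largest value (0.63, adjusted p = 0.00474), and 10 fell, with the largest fall for Rgs18 (-1.32, adjusted p = 0.000266), a regulator of G protein signalling. IC against Ova called 0 of 30 in DMSO by edgeR, with 5 at an unadjusted p under 0.05, where the shares of all genes were 1.22% and 11.7%. Under iBET it called 1, Rgs2, which fell by 0.81 (adjusted p = 0.0118), with 6 at an unadjusted p under 0.05. There the shares of all genes were 0.349% and 7.50%.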

How the data were processed

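Total RNA was sequenced from BMDMs in 4 groups of 3 libraries (paired reads). Per the labels and methods, the authors trimmed reads with Trim Galore, aligned them to mm10 with HISAT2 and deposited a count per gene symbol from featureCounts. The annotation, strand use and treatment of reads with several alignments are not given in the sources used here. The authors also deposited a normalized signal, which was checked and equalled the counts divided by DESeq2 size factors (largest relative gap 4.89e-15). Columns of the deposited tables were matched to libraries by name.

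Counts were fitted in edgeR 4.0.16 (R 4.3.3) with 1 term per group over all 12 libraries, filterByExpr at its minimum count of 10, TMM scaling and robust quasi-likelihood tests. Benjamini-Hochberg adjustment ran over all 11468 genes, with calls made under an adjusted p of 0.05. Intervals cover 95%. Alternatives were DESeq2 1.42.0, its size factors in edgeR, other filters, the mouse as a block, 1 surrogate variable (sva 3.50.0), the compared groups alone, limma 3.58.1 on log2(signal + 1), voom with sample weights, removal of Rn45s, and fits without each library or mouse. The blocked fits without each library and the test of mouse terms were added after the data had been seen. The scripts were tested on simulated data. The simulated counts held no difference between mice, so the block was not tested against one. Changes were set only in genes with higher counts than Ccl12 and Ccl22 had.

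The labels name the mouse, so replicate numbers pair the libraries. Deviations from group means correlated at a median of 0.263 (range -0.07 to 0.54) over 18 pairs from the same mouse and of -0.134 over 36 pairs from different mice and groups. Deviations sum to 0 within a group, so positive values within mice force negative ones between mice, and the second median adds no independent evidence. Members and lists were chosen with earlier results of these data known. The 9 members tested were named in every comparison, Ccl24 by its counts, of the other ligands and receptors those called, and of the signalling genes those with the largest rise and fall. Of the receptor list, 1 gene is not reported here. All 10 members and 23376 of 24421 symbols matched GENCODE vM21 by symbol. Depth sets the precision: the libraries held 7549849 to 17387639 counts. No libraries of 1 group differed by so little as to be 1 library deposited repeatedly (chi-square per degree of freedom 8.02 to 62.8).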

Additional observations from a re-analysis of the deposited data

How the results depend on the processing

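In 1000 of 1131 refits of a member in a comparison the direction and the side of the threshold were those of the report, 9 lost a call, 49 gained 1 and 73 changed sign. None of these changes of sign was in a comparison in which the gene was called. For IC against Ova in DMSO the count of members called was 0 and became 1 with DESeq2 and 3 with the replicate block in edgeR or DESeq2. For IC against Ova in iBET it was 0 and became 2 with DESeq2, 3 with the replicate block in either tool and 3 with limma voom. For iBET against DMSO in Ova it was 1 and became 3 with DESeq2, 4 with the replicate block in either tool and 2 with limma on the normalized signal. For iBET against DMSO in IC it was 3 and 4 with DESeq2, the replicate block in either tool, limma on the normalized signal and limma voom, each of which added Ccl2, and 2 with at least 10 counts in every library. The block in edgeR changed no other call of a member than those given in the report. The cause of these shifts was not tested.

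Leaving out each library or mouse gave 0 to 0 members called for IC in DMSO, 0 to 1 for IC in iBET, 1 to 3 for iBET in Ova and 1 to 4 for iBET in IC. Of all genes, the same fits called 0 to 1.38%, 0 to 2.66%, 11.4 to 33.7% and 15.4 to 38.3% in that order. Without mouse A the single member called in each iBET comparison was Ccl9. With at least 10 counts in every library Ccl4 was not tested.

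Signs turned for members and comparisons that were not called. Ccl5 in IC against Ova in DMSO was -0.15 with DESeq2, -0.25 and -0.24 with the replicate block in edgeR and DESeq2, -0.24 with limma on the normalized signal and -0.24 with limma voom. With limma voom, iBET against DMSO was 0.19 for Ccl5 and 0.071 for Ccl6 in Ova and 0.030 for Ccl6 in IC, and the interaction of Ccl7 was 0.042. Ccl22 with iBET in IC was 0.033 and 0.021 with the replicate block and 0.078 with limma on the signal. The interaction of Ccl9 was 0.017 with 1 surrogate variable, 0.0031 with limma on the signal and 9.13e-05 without Rn45s. Without single libraries or mice these signs turned too. For IC against Ova in DMSO the ranges of the log2 fold change were Ccl5 -0.76 to 0.40 and Ccl6 -0.31 to 0.17. For IC against Ova in iBET the ranges of the log2 fold change were Ccl5 -1.42 to 0.20 and Ccl6 -0.49 to 0.099. For iBET against DMSO in Ova the ranges of the log2 fold change were Ccl5 -0.71 to 0.36, Ccl6 -0.18 to 0.18 and Ccl12 -0.87 to 0.39. For iBET against DMSO in IC the ranges of the log2 fold change were Ccl5 -1.54 to 0.25, Ccl6 -0.48 to 0.14 and Ccl22 -0.61 to 0.41. For the interaction the ranges of the log2 fold change were Ccl2 -0.36 to 0.43, Ccl3 -0.042 to 0.31, Ccl4 -0.28 to 0.51, Ccl5 -1.48 to 0.32, Ccl6 -0.47 to 0.18, Ccl7 -0.41 to 0.13, Ccl9 -0.12 to 0.14 and Ccl22 -0.20 to 1.39. Over all refits, 2 to 3 receptors were called with iBET in either antigen, and 4 to 15 signalling genes in Ova and 5 to 18 in IC, against 12 and 14. Of all genes, 140 were called for IC in DMSO and 40 in iBET, against 315 and 85 with the block and 5 to 427 and 33 to 227 over settings other than leaving out a library. Those settings called 19.8 to 43.5% of all genes with iBET in Ova and 22.3 to 42.1% in IC. Depth limits Ccl12, Ccl22 and Ccl24, which had at most 28 counts in a library.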
